A study of Mus musculus with 9 samples.

Results

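The genes described here fold, modify and dispose of proteins in the endoplasmic reticulum (ER), or carry the stress signal of that compartment to the nucleus. They were chosen by name: 52 gene symbols were listed by function, 50 of them stand in the table of 14940 genes, and all 50 passed the filter on low values and were tested. Sec61b and Selenos are not in the table under these symbols. Selenos, a degradation gene, is there under its older symbol Vimp, at 267, 401 and 281 in naive, 404, 414 and 317 in EAE and 478, 477 and 403 in treated mice. It did not pass in any comparison and, since members were matched by symbol, is counted below with the further folding genes. RNA came from LSK cells of mouse bone marrow, which lack lineage markers, carry Sca-1 and c-Kit and include the haematopoietic stem cells. The 9 C57BL/6 mice, of unstated age and with no altered allele named, formed 3 groups of 3. Naive mice received no immunization. EAE mice were taken 3 days after immunization against MOG35-55, a myelin peptide, in complete Freund's adjuvant, which starts experimental autoimmune encephalomyelitis (EAE). Treated mice were immunized in the same way and given SR59230A, an antagonist of β3-adrenergic receptors, for 3 days. No group received adjuvant alone, and no vehicle is named for the untreated EAE mice, so the adjuvant and the peptide cannot be told apart, nor the antagonist and its administration.

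Proteins that enter the secretory pathway are threaded into the ER through the Sec61 channel, lose their signal peptide, receive N-linked glycans and fold with the help of chaperones and disulfide isomerases. Chains that fail to fold are returned to the cytosol and degraded. When unfolded chains build up, the sensors IRE1, PERK and ATF6 start the unfolded protein response (UPR), which raises the synthesis of folding and degradation machinery and slows translation. Haematopoietic stem cells are known to make protein at a low rate, whereas granule-forming myeloid progenitors and above all plasma cells carry a heavy secretory load.

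The table holds whole numbers that had been adjusted in some way, so they do not give the depth of a library. They summed to between 8641735 and 10387955 per library. Below they are divided by a scaling factor per library, and fold changes are on the log2(value + 1) scale, with their SE. Both genes of the gate were present in every library, with Kit at 6503 to 7187 in naive, 4814 to 5251 in EAE and 4916 to 5124 in treated mice, and Ly6a, which encodes Sca-1, at 1403 to 1729, 1868 to 2364 and 2323 to 2522. Markers of other cells were present too. The 5 granulocyte-monocyte progenitor markers (Ms4a3, Elane, Mpo, Ctsg and Prtn3) summed to 1773 to 2401 in naive, 12983 to 20029 in EAE and 13022 to 14084 in treated mice, and 5 of 5 rose in both immunized groups. The sums of 6 of 6 neutrophil markers were 2247 to 5970.3, 2973 to 15035 and 6844 to 15307 in the same order, so naive and treated mice did not overlap. Monocyte markers (4 of 5 in the table) summed to 633 to 991, 2158 to 2415 and 2203 to 2308, with naive mice below all others. Those of T and NK cells (3 of 4) summed to 571 to 634, 771 to 922 and 768 to 871, also lowest in naive mice. Most of the T and NK sum is Nkg7, at 542 to 621, 755 to 910 and 749 to 831 in that order. Klrd1 averaged 17.7, 10.2 and 22.7, lowest in EAE mice, and Cd3g lay between 2.03 and 6.06 over all libraries. B cell markers (4 of 5) summed to 862 to 1045, 741 to 848 and 909 to 977, and erythroid markers (4 of 5) to 607 to 638, 384 to 416 and 828 to 1032, both lowest in EAE mice. Those of endothelial and stromal cells (4 of 5) lay between 2196 and 3459 over all libraries, and most of that sum is Pecam1. Cdh5 was 18.8 to 122 in naive, 2.07 to 17.0 in EAE and 5.05 to 18.2 in treated mice. Its naive libraries lay above all others, with a log2 fold change of -2.89 ± 0.80 in EAE mice. Cxcl12 reached at most 8.40 and was at 0 in 3 libraries, and Col1a1 reached at most 25.4. The sum of the plasma cell markers (5 of 6), most of which is Jchain, overlapped between all groups, and each marker is described below. The part of these cells in the results was not tested.

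Of the 50 ER genes, 23 rose in EAE mice and 0 fell at a Benjamini-Hochberg adjusted p under 0.05 (limma-trend). Among all 13018 tested genes 9.13% rose and 5.1% fell, 14.2% together. The log2 fold change was above 0 in 44 of the 50 genes, beside 49.6% of all genes, and the unadjusted p was under 0.05 in 30, beside 28.8%. The rises ran from 1.28-fold to 2.40-fold, with adjusted p from 0.0009 to 0.0391. In each of the 23 genes, all 3 EAE libraries lay above all 3 naive libraries, an arrangement found in 29 of the 50 ER genes and in 21% of all tested genes. The opposite arrangement was found in 0 of the 50 and 18.4% of all. The median log2 fold change was 0.44 over the ER genes and -0.0032 over all genes. In bulk RNA, fewer cells of a type and less RNA per cell cannot be told apart. The labels describe the replicates as separate mice.

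**Figure D1:**
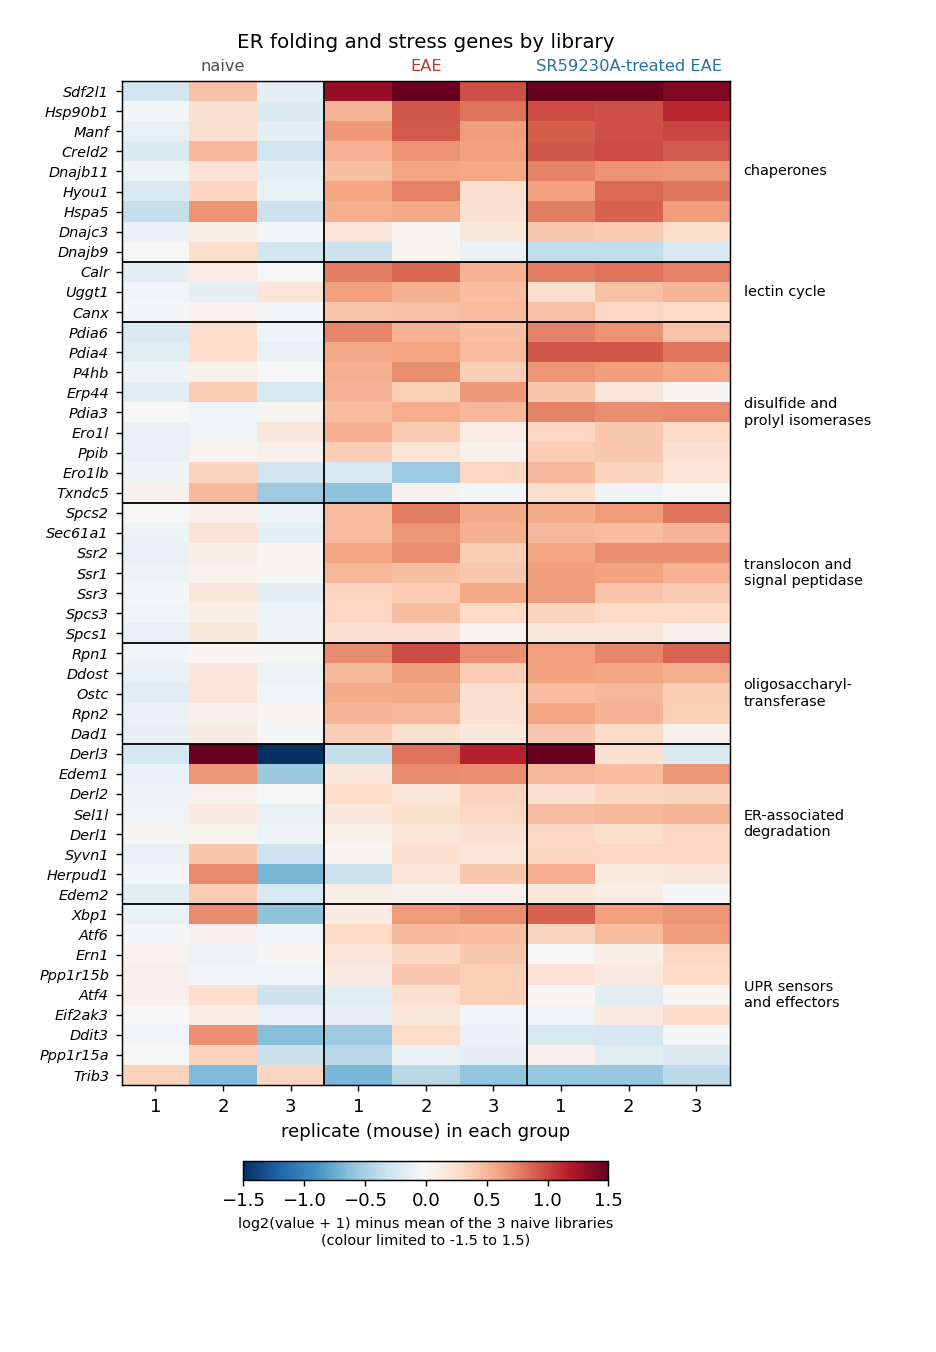
Level of each of the 50 ER genes (rows, grouped by role) in each of the 9 libraries (columns), as log2(value + 1) minus the mean of the 3 naive libraries. The EAE and treated columns are red for most folding, translocation and glycosylation genes. Of the degradation and stress response genes, Derl3, Herpud1, Ddit3, Xbp1 and Edem1 vary among naive libraries, with naive replicate 2 high and naive replicate 3 low. In Trib3 naive replicate 2 is the lowest naive library, and Derl1, Derl2, Ern1, Atf6 and Ppp1r15b vary little among naive mice.

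The chaperones and their partners held the largest rise. Sdf2l1, which encodes a partner of the BiP chaperone cycle, had values of 284, 473 and 313 in naive, 860.2, 979.8 and 680.2 in EAE and 1008, 1025 and 923 in treated mice. The lowest immunized library stood above the highest naive one. The rise in EAE mice was 2.40-fold, a log2 fold change of 1.26 ± 0.18 (adjusted p = 0.00138), and that in treated mice 2.83-fold (adjusted p = 0.000472). Hsp90b1 encodes GRP94, the HSP90 chaperone of the ER, and was 6379, 7558 and 5616 in naive, 9176, 12301 and 11411 in EAE and 12781, 12611 and 14197 in treated mice. All 3 groups were separate, and the log2 fold change of EAE over naive mice was 0.75 ± 0.14 (adjusted p = 0.00608). Manf, which encodes a small ER protein that is induced and secreted under stress, was 1704, 2189 and 1688 in naive, 2896, 3485 and 2859.6 in EAE and 3468, 3602 and 3693 in treated mice. Its naive libraries lay below all others, and its log2 fold change in EAE mice was 0.74 ± 0.12 (adjusted p = 0.00282).

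Dnajb11, a co-chaperone gene of BiP, rose by 0.55 ± 0.11 on the log2 scale in EAE mice (adjusted p = 0.00776). Creld2, which encodes a protein with disulfide isomerase activity, was 465, 757 and 435 in naive and 766, 851 and 818 in EAE mice. The groups were separate by a narrow margin, since naive replicate 2 reached almost the lowest EAE value, and the rise was 0.60 ± 0.17 (adjusted p = 0.0391). That call was lost without naive replicate 1 or 3 or EAE replicate 2 or 3, with upper-quartile scaling or none, with robust variances, with the chemosensory term described below and with the 2 groups alone (limma-trend adjusted p from 0.000527 to 0.757 over all alternatives).

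Hspa5, which encodes BiP, the main HSP70 chaperone of the ER and the best-known marker of the UPR, did not pass in EAE mice. Its values were 5087, 10450.0 and 5229 in naive and 9559.7, 9639.8 and 7630.3 in EAE mice, so naive replicate 2 stood above all EAE libraries. The log2 fold change was 0.45 ± 0.23 (adjusted p = 0.233), and without naive replicate 2 it was 0.79 (adjusted p = 0.00457). That was the only one of 19 alternatives in which Hspa5 passed. Over all 19 the log2 fold change ran from -0.65 to 0.79 and the limma-trend adjusted p from 0.00457 to 0.626. Hyou1, the gene of an exchange factor of BiP, was 701 ± 146 in naive and 1007 ± 177 in EAE mice (SD, n = 3 each) and narrowly missed the threshold (adjusted p = 0.0505 by limma-trend). Dnajc3, which encodes the co-chaperone p58IPK, did not pass either, at 0.13 ± 0.10. Dnajb9, which encodes the co-chaperone ERdj4, was the single chaperone with a negative value, -0.13 ± 0.14 (adjusted p = 0.584). In all, 5 of the 9 chaperone genes rose, with a median of 0.55.

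All 3 genes of the lectin cycle, which holds glycoproteins until they are folded, rose in EAE mice. Calr, the gene of calreticulin, was 6664, 7956 and 7363 in naive, 12490.0, 13272 and 10518 in EAE and 12475, 12825 and 12303 in treated mice. Naive mice stood apart from both immunized groups, which overlapped, and the log2 fold change in EAE mice was 0.72 ± 0.12 (adjusted p = 0.00292). Canx, which encodes the membrane-bound calnexin, was 2158, 2284 and 2147 in naive, 2922, 2980.2 and 3061 in EAE and 2976, 2726 and 2692 in treated mice, with little spread within the groups. It rose by 0.45 ± 0.09 in EAE mice (adjusted p = 0.00655), and Uggt1, the gene of the glucosyltransferase that returns unfolded glycoproteins to the cycle, by 0.53 ± 0.12 (adjusted p = 0.0114).

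**Figure D2:**
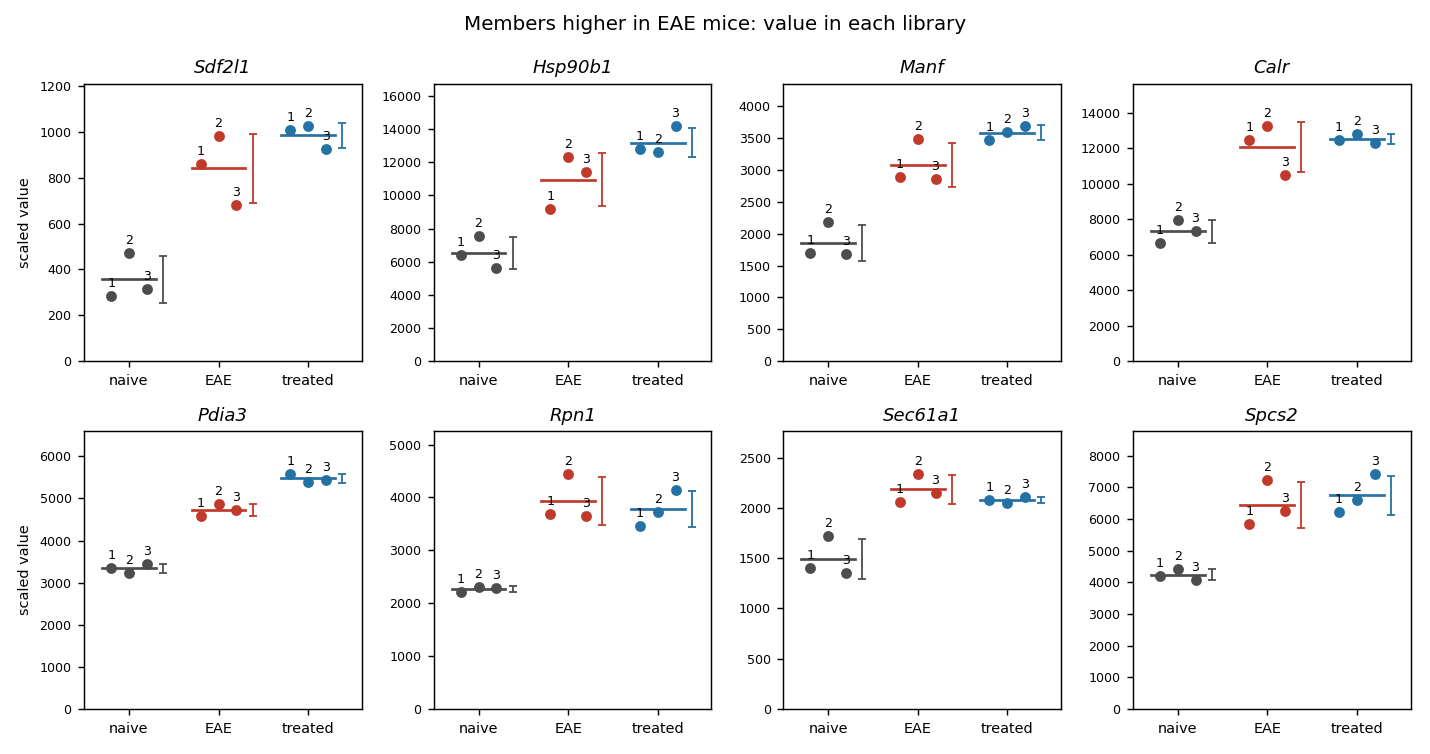
Scaled value in each library for 8 ER genes that rose in EAE mice. Points are libraries with their replicate number, bars are means and whiskers are SD (n = 3 mice). In each panel the naive libraries lie below all 6 other libraries.

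Several of these genes carry the ER stress element (ERSE) in the promoter, the sequence at which ATF6 acts together with the CCAAT-binding factor NF-Y. Promoter windows of RefSeq (build GRCm38.p6) were at hand for 41 of the 50 genes, and the 250 bases before the start site were searched on both strands, in these genes and in all others. The ERSE, read here as CCAAT, 9 bases of any kind and CCACG, was found in 10 of the 41 (24.4%) and in 35 of 27025 genes with a window (0.13%). The shorter ERSE-II, read as ATTGG, a single base of any kind and CCACG, was found in Herpud1 and in 0.037% of all genes. The letters TGACGTGG, which XBP1 can bind, were found in Txndc5 and in 0.603% of all genes, and TGATGNAAT, a composite site of ATF4, in 0 of the 41 and 0.91% of all genes. No window of an ER gene held matches to 2 different motifs. The ERSE was first defined in promoters of genes on this list, so its share here is a description. A match in letters is not a site in use.

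The stretches below are those of chaperone, lectin and isomerase genes that hold the ERSE, with the ERSE-II of Herpud1 for comparison. All 8 such genes of the 3 roles are shown, 5 that rose in EAE mice and 3 that did not pass. Each runs 5′ to 3′ on the strand of its gene, and capitals mark the fixed letters of the motif, read as CCAAT and CCACG or, in the reverse orientation, CGTGG and ATTGG.
Hspa5: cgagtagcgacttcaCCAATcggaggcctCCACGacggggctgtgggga
Hsp90b1: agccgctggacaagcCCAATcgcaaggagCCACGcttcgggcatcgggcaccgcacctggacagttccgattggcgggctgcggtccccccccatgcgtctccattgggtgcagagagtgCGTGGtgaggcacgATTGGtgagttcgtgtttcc
Dnajc3: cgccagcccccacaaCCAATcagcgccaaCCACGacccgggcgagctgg
Creld2: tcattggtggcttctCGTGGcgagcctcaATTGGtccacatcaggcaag
Calr: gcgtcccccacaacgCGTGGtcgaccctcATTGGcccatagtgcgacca
Canx: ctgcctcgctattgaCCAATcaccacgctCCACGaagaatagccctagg
Pdia6: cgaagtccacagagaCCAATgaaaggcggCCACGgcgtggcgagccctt
Ero1lb: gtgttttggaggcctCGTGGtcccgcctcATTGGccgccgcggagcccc
Herpud1: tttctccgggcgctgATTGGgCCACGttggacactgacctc
In build GRCm38.p6 the Hspa5 stretch lies at chr2:34772010-34772058 on the plus strand, upstream of the start site, as do all the others. That of Hsp90b1 lies at chr10:86705518-86705671 on the minus strand and holds 2 elements in opposite orientation. The Dnajc3 stretch is at chr14:118937812-118937860 on the plus strand and that of Ero1lb at chr13:12565667-12565715 on the plus strand. The Creld2 stretch is at chr15:88819505-88819553 on the plus strand, that of Calr at chr8:84847060-84847108 on the minus strand and that of Canx at chr11:50325785-50325833 on the minus strand. The Pdia6 stretch is at chr12:17266476-17266524 on the plus strand and that of Herpud1 at chr8:94386362-94386402 on the plus strand.

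Hsp90b1, Creld2, Calr, Canx and Pdia6 rose in EAE mice, while Hspa5, Dnajc3, Ero1lb, Syvn1, Derl3 and Herpud1, which hold an ERSE or ERSE-II as well, did not pass. So 5 of the 11 genes with such an element rose (median 0.45 on the log2 scale), beside 12 of the 30 with a window and neither element, with a median of 0.38. In treated against naive mice the counts were 7 of 11 and 13 of 30, with medians of 0.62 and 0.37. The 2 sets were not tested against each other.

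Among the enzymes that form and shuffle disulfide bonds, 4 protein disulfide isomerase genes rose and the oxidase genes did not pass. Pdia3, the isomerase that works with calnexin and calreticulin, was 3338, 3234 and 3439 in naive, 4593, 4868 and 4728 in EAE and 5588, 5395 and 5448 in treated mice. The 3 groups were separate, each with a narrow spread, and the log2 fold change in EAE mice was 0.51 ± 0.09 (adjusted p = 0.0033). P4hb, which encodes the founding member of the family, rose by 0.54 ± 0.10 (adjusted p = 0.00583), and Pdia4 and Pdia6 rose by 0.55 ± 0.12 and 0.57 ± 0.14. The oxidase genes Ero1l and Ero1lb, which supply these enzymes with oxidizing power, had log2 fold changes of 0.35 ± 0.13 and -0.16 ± 0.23, and Erp44, the gene of a retention partner of both oxidases, one of 0.51 ± 0.20. None of the 3 passed, nor did the prolyl isomerase gene Ppib (0.21 ± 0.11) or the isomerase gene Txndc5 (-0.19 ± 0.24). The list held 9 genes, of which 4 rose, with a median of 0.51.

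Of the 8 listed genes of entry into the ER 7 were tested, since Sec61b is not in the table under that symbol. Of the 7 genes 6 rose in EAE mice, with a median of 0.45. Sec61a1, which encodes the pore of the channel, was 1406, 1721 and 1349.9 in naive, 2060.3, 2341 and 2153 in EAE and 2083, 2049.9 and 2109 in treated mice. The groups of immunized mice overlapped and naive mice stood below them, with a log2 fold change of 0.56 ± 0.11 (adjusted p = 0.00608) in EAE mice. The translocon-associated Ssr1, Ssr2 and Ssr3 rose by 0.45 ± 0.09, 0.56 ± 0.11 and 0.43 ± 0.12. Of the signal peptidase subunit genes, Spcs2 was 4198, 4417 and 4080.3 in naive and 5833, 7239 and 6261 in EAE mice. It rose by 0.60 ± 0.11 (adjusted p = 0.00537) and Spcs3 by 0.36 ± 0.09 (adjusted p = 0.0233), while Spcs1, at 0.18 ± 0.11, did not pass.

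The oligosaccharyltransferase complex, which attaches the glycan to the entering chain, had 4 of 5 genes higher and a median of 0.46. Rpn1, which encodes ribophorin I, was 2207, 2304 and 2286 in naive, 3693, 4448 and 3641 in EAE and 3464, 3719 and 4142 in treated mice. Its 3 naive values were close together and far below the others, and it had the lowest adjusted p of the ER genes in EAE mice (0.0009), with a log2 fold change of 0.79 ± 0.11. Ddost, the gene of another subunit, rose by 0.50 ± 0.11, Rpn2 (ribophorin II) by 0.41 ± 0.11 and Ostc by 0.46 ± 0.12. Dad1, at 0.26 ± 0.13, did not pass (adjusted p = 0.195), although its EAE libraries lay above the naive ones.

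None of the 8 tested genes of ER-associated degradation passed in EAE mice, where 9.13% of all tested genes rose and 5.1% fell. At an unadjusted p (limma-trend) under 0.05 there were 2 of the 8, beside 28.8% of all genes. The log2 fold changes of the 8 were all positive, from 0.07 to 0.54, with a median of 0.20. Sel1l and Syvn1, which encode the scaffold and the ubiquitin ligase of the main retrotranslocation complex, had 0.24 ± 0.10 and 0.15 ± 0.16. The Derlin genes Derl1 and Derl2 had 0.17 ± 0.09 and 0.27 ± 0.11, with EAE libraries above all naive libraries for both. Edem2, which encodes a protein that trims and marks misfolded glycoproteins, stood at 770.3 ± 185 in naive and 795 ± 8.21 in EAE mice (SD, n = 3 each). The median interval (95%, unadjusted) of this list reached 0.33 to either side. Whether the list differed from the others was not tested.

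Of the 9 genes for UPR sensors and effectors, 1 rose in EAE mice, a share near the 9.13% of all tested genes that rose. Whether this list differed from the others was not tested. Atf6, which encodes the sensor that is cleaved to release a transcription factor, was 974, 1027 and 952 in naive, 1214, 1376 and 1343 in EAE and 1239, 1359 and 1520.1 in treated mice. Naive libraries lay below all others, and the log2 fold change was 0.41 ± 0.10 in EAE (adjusted p = 0.0204) and 0.48 ± 0.10 in treated mice (adjusted p = 0.0111). Ern1, the gene of the sensor IRE1, was 1798, 1650.2 and 1761 in naive and 1989, 2163 and 2293 in EAE mice, with no overlap, but did not pass (adjusted p = 0.075). Eif2ak3, the gene of the sensor PERK, had a log2 fold change of 0.01 ± 0.13, with a 95% interval from -0.28 to 0.29. PERK and ATF6 act as proteins, and their activity is not measured here.

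None of the effectors downstream of PERK passed in either direction. Atf4, the transcription factor whose translation PERK favours, was 12961, 14575 and 9811 in naive, 10849.5, 14577 and 15689 in EAE and 12575, 10995 and 12565 in treated mice, and all groups overlapped. Ddit3, which encodes CHOP, a factor of prolonged stress, was 472, 778 and 309.7 in naive, 333, 589 and 455 in EAE and 410.2, 404 and 474 in treated mice, also with overlap. The log2 fold changes in EAE mice were 0.14 ± 0.18 and -0.12 ± 0.29, with 95% intervals from -0.24 to 0.53 and from -0.74 to 0.51. Ppp1r15a, the gene of the inducible phosphatase subunit GADD34 that ends the translational block, had -0.22 ± 0.16, and its constitutive counterpart Ppp1r15b 0.30 ± 0.10 (adjusted p = 0.0691). Trib3, a pseudokinase gene induced by CHOP, was 52.4, 25.4 and 51.3 in naive and 25.1, 30.5 and 26.9 in EAE mice. Here naive replicate 2 was as low as the EAE libraries, and Trib3 passed as lower without it, the only one of 19 alternatives in which it passed.

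**Figure D3:**
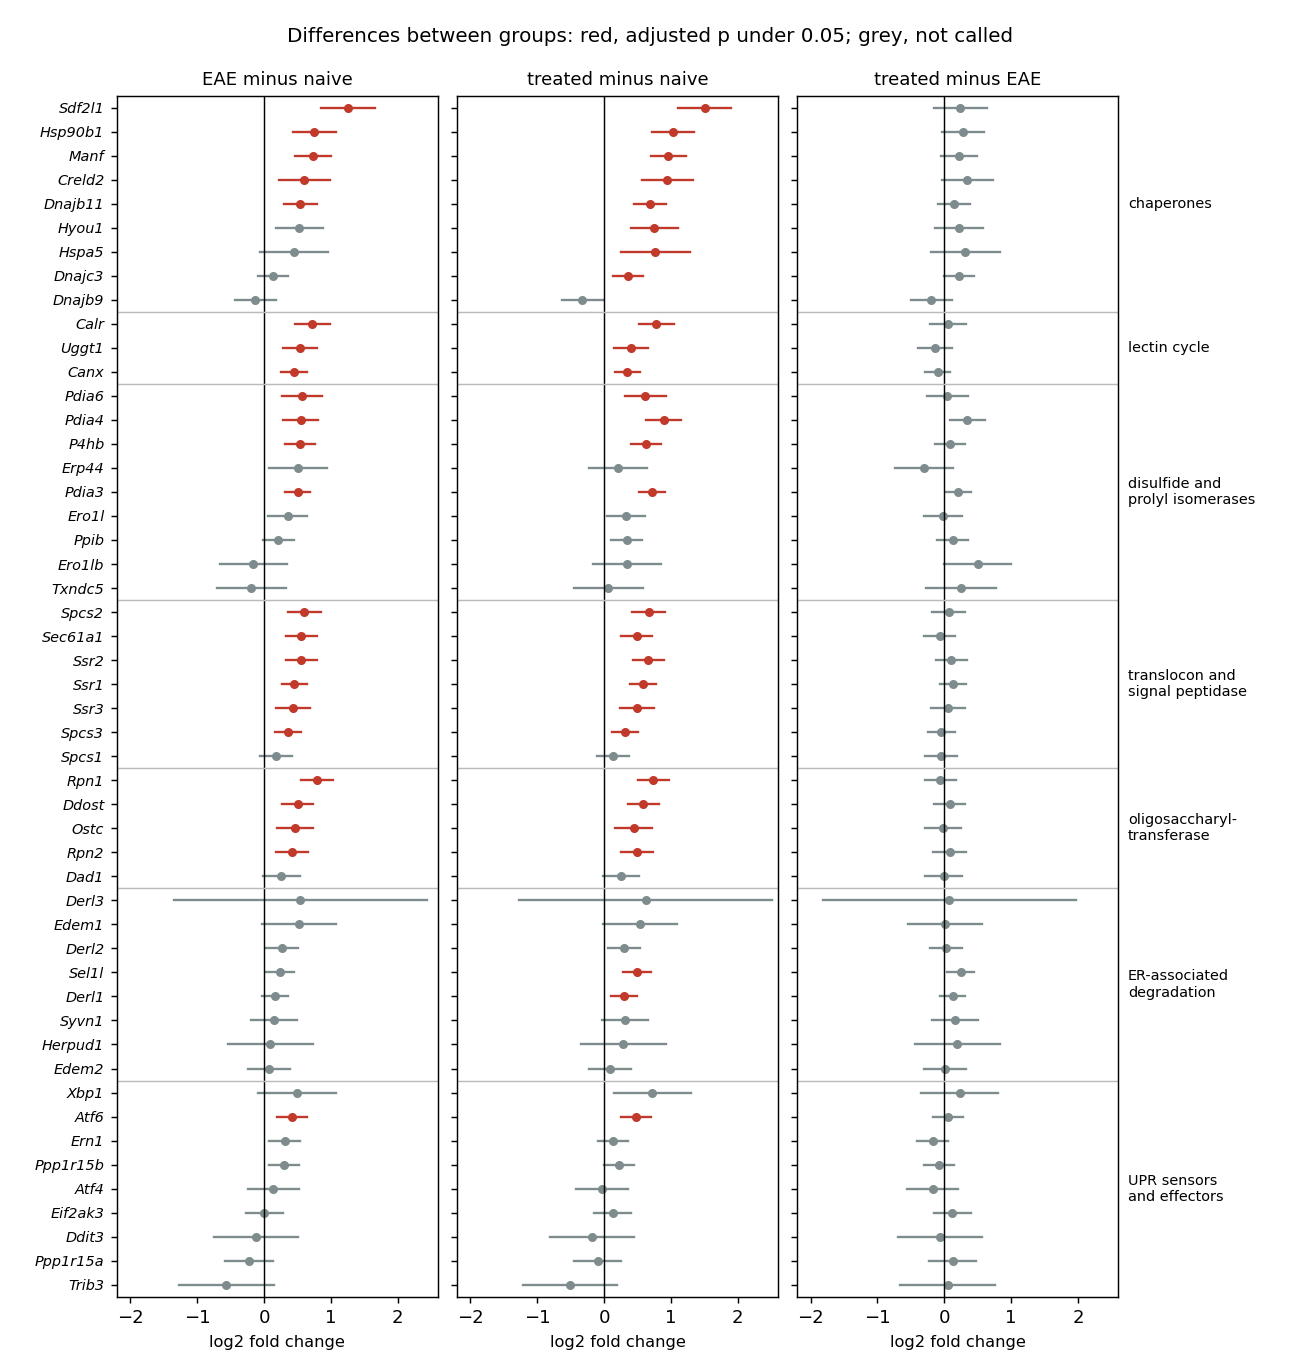
Log2 fold change (points) and unadjusted 95% interval (lines) of the 50 ER genes in the 3 comparisons, ordered by role. Red marks adjusted p under 0.05 by limma-trend: 23 genes in EAE against naive, 28 in treated against naive and 0 in treated against EAE mice.

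Xbp1, whose mRNA is spliced by IRE1 to give a transcription factor of secretory capacity, did not pass. Its values were 2393, 4181 and 1691 in naive, 2824, 3990.5 and 4169 in EAE and 4737, 3948 and 4056 in treated mice. Naive replicate 2 lay within the range of the immunized mice, and naive replicate 3 was the lowest library. The log2 fold changes were 0.49 ± 0.27 in EAE (adjusted p = 0.247) and 0.72 ± 0.26 in treated mice (adjusted p = 0.0874), and the splice forms are not resolved in these values. Herpud1, which encodes a stress-induced part of the degradation complex, was 1507, 2516 and 959.9 in naive, 1229, 1754 and 2043 in EAE and 2240.0, 1701 and 1731 in treated mice. Edem1, which encodes a lectin-like protein that sends misfolded glycoproteins to degradation, was 662, 1118 and 480.4 in naive, 788, 1158 and 1153 in EAE and 1001, 973 and 1119 in treated mice. Derl3, the Derlin gene most restricted to secretory cells, was 19.1, 105 and 5.60 in naive, 17.9, 41.7 and 52.8 in EAE and 85.9, 27.3 and 19.9 in treated mice. For these 4 genes and Ddit3, naive replicate 2 was the highest and naive replicate 3 the lowest of the naive mice, and EAE replicate 1 was the lowest of the EAE mice. These 5 had the widest spread among naive mice of the 50 and were singled out after their values were seen.

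Of the 5 plasma cell markers in the table, 4 had the same highest and lowest naive library and the same lowest EAE library as these genes. In treated mice replicate 1 was highest for the 4 markers and for Xbp1, Herpud1 and Derl3. For Edem1 and Ddit3 it was treated replicate 3, at 1119 and 474. Jchain, which encodes the joining chain of secreted antibodies, was 10889, 23873 and 3303 in naive, 3106, 9946 and 8959 in EAE and 16799, 6524 and 6440.1 in treated mice. Naive replicate 2 and treated replicate 1 were its highest libraries, and naive replicate 3 and EAE replicate 1 its lowest. Mzb1, a chaperone gene of antibody-secreting cells, was 407, 747 and 161 in naive, 159.7, 329 and 419 in EAE and 787, 343 and 314 in treated mice, and Tnfrsf17, the gene of their survival receptor BCMA, 57.4, 70.6 and 9.33 in naive, 2.69, 31.5 and 19.7 in EAE and 52.5, 19.2 and 29.8 in treated mice. Prdm1, the gene of the transcription factor Blimp-1, was 98.7, 212 and 37.3 in naive, 45.7, 92.5 and 131 in EAE and 218, 91.1 and 81.6 in treated mice. Sdc1, the gene of the surface proteoglycan CD138, differed from these, at 590.0, 694 and 492 in naive, 300.5, 287 and 364 in EAE and 466, 437 and 399 in treated mice. Its 3 groups were separate and EAE replicate 2 was its lowest library, and it fell in EAE mice, with a log2 fold change of -0.90 ± 0.15 (limma-trend adjusted p = 0.00256). The sum of the 5 markers was 4003, 12042 and 25597 in naive mice in ascending order, 3615 to 10686 in EAE mice and 7265 to 18322 in treated mice, with overlap between all groups. In naive mice 26 of the 50 ER genes stood in the same order of libraries as the marker sum, beside 23.2% of all tested genes. It was 16 in EAE mice, beside 13.2%, and 16 in treated mice, beside 26.8%, and was not tested. In all 3 groups at once 2 of the 50 ER genes held that order, and the share of all genes was not counted. Over the 50 genes the highest naive value was from 1.04 times (Rpn1) to 18.8 times (Derl3) the lowest. With a term for the marker sum in the model, chosen after the data were seen, 29 ER genes rose in EAE mice, all 23 of the first set among them, and Xbp1, Edem1, Derl3, Hyou1, Erp44 and Ppp1r15b were added. Without naive replicate 2 the number was 30, again with all 23, and Hspa5, Xbp1, Syvn1 and Edem1 were among those added. These 2 counts have no share of all genes beside them. Over the fits that left out 1 library, 1239 to 2624 genes were called in all, beside 1853 in the main fit.

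**Figure D4:**
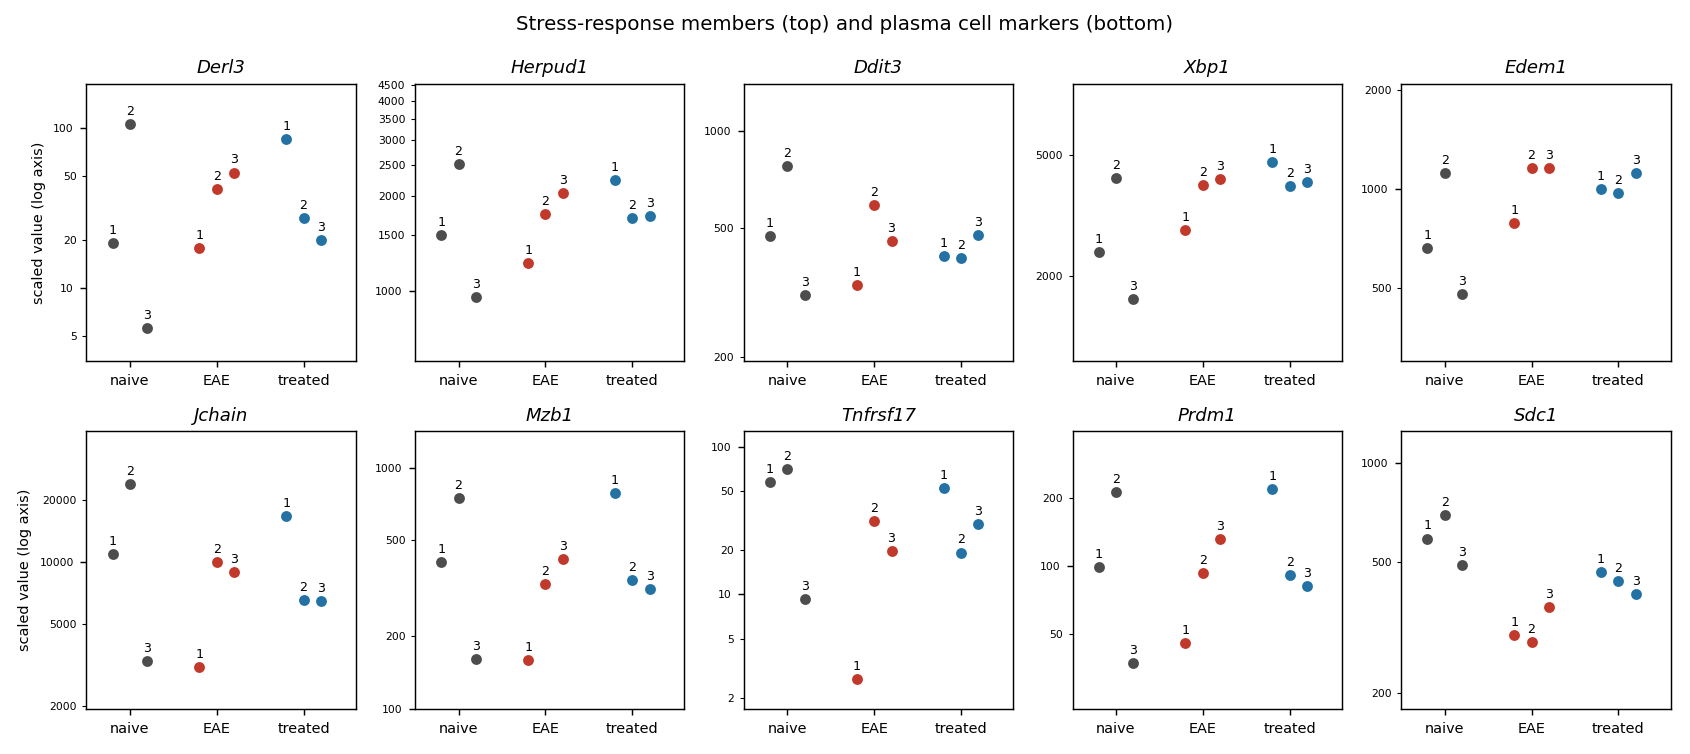
Scaled value (log axis) in each library, labelled by replicate, for the 5 ER genes with the widest spread among naive mice (Derl3, Herpud1, Ddit3, Xbp1 and Edem1) and for the 5 plasma cell markers Jchain, Mzb1, Tnfrsf17, Prdm1 and Sdc1. Among the naive mice replicate 2 is highest and replicate 3 lowest in each panel, and EAE replicate 1 is the lowest EAE library in each except Sdc1, where it is EAE replicate 2.

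The granulocyte-monocyte progenitor markers moved with the ER genes between naive and immunized mice and did not overlap, and in these libraries a rise of the ER genes and a larger share of such progenitors cannot be told apart. The same holds for the chemosensory receptor genes (Olfr, Vmn and Taar symbols), which serve smell and pheromone sensing. They held 0.146% to 0.175% of the values in naive, 0.103% to 0.117% in EAE and 0.0774% to 0.096% in treated mice. With a term for their share 0 ER genes rose in either comparison with naive mice, and the median log2 fold changes were 0.13 for EAE and 0.12 for treated mice. Without scaling 15 rose in each. Besides Creld2, some calls in EAE mice were lost when 1 library was left out. Pdia6, Spcs3, Ssr3, Ostc and Rpn2 were lost without naive replicate 1, Ssr3 also without naive replicate 3, Ostc without EAE replicate 1 or 2 and Rpn2 without EAE replicate 2.

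In treated against naive mice 28 ER genes rose and 0 fell, where 10.2% of all tested genes rose and 4.61% fell, 14.8% together. All 23 genes that rose in EAE mice were among them. Both comparisons use the same naive libraries, so the second is no independent repeat of the first. The median log2 fold change was 0.46, and the rises ran from 1.23-fold to 2.83-fold with adjusted p from 0.00045 to 0.0485. In 27 of the 28 genes every treated library stood above every naive library, as in 31 of the 50 ER genes and 26.4% of all genes, the exception being Hspa5. Every treated library stood below every naive library in 0 of the 50 and 22.4% of all genes. The log2 fold change was above 0 in 45 of the 50, beside 50.8% of all genes, and the unadjusted p under 0.05 in 34, beside 31.1%.

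The 5 further genes were Hspa5, Hyou1, Dnajc3, Sel1l and Derl1. Hspa5 was 11118, 12095 and 10110.2 in the treated libraries, of which replicate 3 lay just below naive replicate 2. Its rise of 0.77 ± 0.23 (adjusted p = 0.0485) was lost under 11 alternatives, with limma-trend adjusted p from 0.00112 to 0.707 over all 19 that were run. Hyou1 rose by 0.75 ± 0.16 (adjusted p = 0.0113) and Dnajc3 by 0.35 ± 0.10 (adjusted p = 0.0411). Sel1l, the scaffold gene of degradation, was 1902, 2153 and 1815 in naive, 2182, 2317 and 2428 in EAE and 2694, 2725 and 2779 in treated mice. The 3 groups were separate, and it rose by 0.49 ± 0.10 (adjusted p = 0.00685) in treated mice. Derl1 rose by 0.29 ± 0.09 (adjusted p = 0.0427), a call lost without naive replicate 1 or 3, without treated replicate 2 or 3, with upper-quartile scaling or none and with the chemosensory term (limma-trend adjusted p from 0.00368 to 0.922 over all alternatives). The calls of Dnajc3, Uggt1, Spcs3 and Ostc in treated mice were also lost when certain single libraries were left out, among them naive replicate 1 for each.

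By role, 8 of 9 chaperone genes rose in treated mice (median log2 fold change 0.77), 3 of 3 lectin cycle genes (0.40), 4 of 9 isomerase genes (0.34), 6 of 7 translocon genes (0.49), 4 of 5 oligosaccharyltransferase genes (0.49), 2 of 8 degradation genes (0.31) and 1 of 9 UPR genes (0.13). Of all tested genes 10.2% rose, and no list was tested against that share. Hsp90b1 and Manf rose by 1.03 ± 0.14 and 0.96 ± 0.12 on the log2 scale. Pdia4, at 1039, 1409 and 1077 in naive, 1730.2, 1752 and 1615 in EAE and 2222, 2221 and 2029 in treated mice, rose by 0.89 ± 0.12, and Creld2 by 0.95 ± 0.17. Both had treated libraries above all others. Dnajb9 stood at 922, 922 and 1018 in treated mice, lower than in 2 of the 3 naive libraries, without passing (-0.32 ± 0.14, adjusted p = 0.142).

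Between treated and untreated EAE mice, 0 of the 50 ER genes passed by limma-trend in either direction, while 1 of the 13018 tested genes rose (0.00768%) and 0 fell (0%). At an unadjusted p under 0.05 there were 3 ER genes, beside 3.87% of all genes. These were Pdia4, Sel1l and Pdia3, with log2 fold changes of 0.34 ± 0.12, 0.24 ± 0.10 and 0.21 ± 0.09 and a limma-trend adjusted p of 0.998 each. They are named because they are few, after their values were seen. Every treated library lay above every EAE library in 11 of the 50 genes, beside 8.46% of all genes, and below in 0, beside 7.71%. The log2 fold change was above 0 in 35 of the 50, beside 52.5% of all genes. Of the 11, 5 were chaperone genes, namely Hspa5, Hsp90b1, Dnajb11, Dnajc3 and Creld2. The median log2 fold change was 0.08 over the ER genes, 0.22 over the 9 chaperones and 0.01 over all genes. The median 95% interval of an ER gene reached 0.26 to either side. For Hspa5 the interval ran from -0.20 to 0.83, for Hsp90b1 from -0.04 to 0.59, for Calr from -0.21 to 0.32 and for Rpn1 from -0.29 to 0.18.

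Beyond the 50 genes, 162 symbols of the same pathways were listed by function, of which 140 were in the table and 138 were tested. In EAE mice 24 rose and 1 fell, beside 9.13% and 5.1% of all tested genes, and the median log2 fold change was 0.14. The 24 include Nupr1 and Slc7a11, whose calls are qualified below. In treated against naive mice 32 rose and 1 fell (median 0.15), beside 10.2% and 4.61%, and between treated and EAE mice 0 passed (median 0.02).

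Other genes of entry and glycosylation rose in part, beside 9.13% of all tested genes that rose in EAE mice. Of 13 tested translocation genes 4 rose in EAE mice, namely Srp68 (0.75 ± 0.13) and Srp19 (0.44 ± 0.10), both of the signal recognition particle, Ssr4 (0.39 ± 0.11), which encodes the fourth translocon-associated protein, and the signal peptidase gene Sec11c (0.38 ± 0.10). Of 30 glycosylation genes 5 rose, among them Mogs, the gene of the glucosidase that starts glycan trimming, at 1637 ± 68.4 in naive and 2836 ± 376 in EAE mice (SD, n = 3 each). The oligosaccharyltransferase gene Krtcap2 rose by 0.59 ± 0.09 and the glycan synthesis gene Alg5 by 0.48 ± 0.10. In treated against naive mice 5 of the 13 translocation genes and 6 of the 30 glycosylation genes rose, beside 10.2% of all tested genes. Srp68 was at 0.76 ± 0.13 and Mogs at 0.86 ± 0.11.

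Of 34 further folding genes 4 rose and 1 fell in EAE mice, a share near the 9.13% of all tested genes that rose. Fkbp11, the gene of a prolyl isomerase of secretory cells, was 53.4, 76.2 and 49.4 in naive, 141, 207 and 145 in EAE and 157, 149 and 161 in treated mice. The naive mice lay below all others, and the rise of 1.46 ± 0.21 (adjusted p = 0.00144) in EAE mice was larger than that of any of the 50 ER genes. The isomerase gene Pdia5 rose by 0.89 ± 0.17 and Erp29, which encodes a folding factor of secreted proteins, by 0.68 ± 0.10. Txndc16 fell, with a log2 fold change of -0.41 ± 0.11, and is named as the single fall, after its value was seen. In treated against naive mice 8 of the 34 folding genes rose and 0 fell, beside 10.2% and 4.61% of all tested genes. Of 27 further degradation genes 2 rose in both comparisons with naive mice, no larger a share than among all tested genes (9.13% and 10.2%). They were Aup1, which recruits a ubiquitin-conjugating enzyme (0.31 ± 0.09 in EAE mice), and Nploc4, a cofactor gene of the extracting ATPase p97 (0.30 ± 0.09).

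A further list of 34 tested genes covers the wider UPR and the integrated stress response, the ATF4-driven program that PERK shares with other kinases. Of these, 9 rose in EAE mice and 0 fell, beside 9.13% and 5.1% of all tested genes. Nupr1 and Slc7a11, whose calls are qualified below, are among the 9. Vldlr, a lipoprotein receptor gene, was 210.4, 218 and 264 in naive, 1001, 926 and 1002 in EAE and 878, 808 and 829.6 in treated mice. The groups were separate, and it rose by 2.09 ± 0.10 (adjusted p = 3.88e-07). Nupr1, a stress-induced chromatin protein gene, was 5.03, 6.59 and 5.60 in naive and 21.5, 23.4 and 17.6 in EAE mice, and the cystine transporter gene Slc7a11 was 5.03, 4.71 and 1.87 in naive and 8.07, 27.4 and 18.6 in EAE mice. Both rose, by 1.70 ± 0.38 and 1.90 ± 0.57, but their naive values all lay under the filter of 10, so both were tested only because they were higher in other groups and their calls are no support for the list. The other genes that rose include Mthfd2 (1.42 ± 0.14), Asns (1.27 ± 0.21) and Psat1 (0.54 ± 0.10), all of amino acid or one-carbon metabolism. They were named after their values were seen. Atf4 and the effectors Ddit3, Ppp1r15a and Trib3 did not pass, at 0.14, -0.12, -0.22 and -0.57 in EAE mice. In treated against naive mice 11 rose and 1 fell, beside 10.2% and 4.61% of all tested genes. Atf3, a stress-induced factor gene, was 116, 730.5 and 50.4 in naive, 503, 1088 and 1233 in EAE and 1811, 886 and 784 in treated mice, and rose by 2.73 ± 0.75 in treated mice (adjusted p = 0.0315) despite a wide spread in all groups. Crebrf, the single fall, had a log2 fold change of -0.52 ± 0.10 and is named for that, after its value was seen.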

How the data were processed

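Per the labels' protocols, LSK cells were sorted from bone marrow and RNA was extracted with an RNeasy micro kit. The deposited data are 1 table with a column for each of 9 libraries, matched by the name in each sample's description, and 0 columns were left unused. The submitters' processing notes name DESeq2, with no version or role. No aligner, counter, build or annotation is named: each is not given in the sources used here. The deposited values are a score, adjusted by the authors in a way not described. In a principal component analysis of ln(value + 1) for 4577 genes averaging 500 or more, the variance share was 2.44% for component 6 but 6.7e-05% for component 7 and 5.94e-05% for component 8. The values thus lack 2 directions across libraries and were not treated as read counts, and the spread between mice may be understated. Precision per gene is unknown.

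Values were divided by median-of-ratios factors (0.907 to 1.11). The filter required 10 or more in 3 libraries and left 13018 genes. Limma-trend (limma 3.58.1, R 4.3.3) was run on log2(value + 1), 2-sided, and calls were made at 0.05 after Benjamini-Hochberg adjustment. The model held 3 group coefficients and the 2 missing directions, with 4 residual degrees of freedom. Groups follow the labels, and replicate numbers follow the order of deposition. The members, the lists and the tests were chosen with earlier results of these data known. Named genes were all members past the threshold, all UPR sensors and effectors, the 2 members with the highest values per role and, per other list and comparison, the 3 with the largest change that passed. Further members are named to account for all. The script was tested on simulated data. Alternatives changed the scaling, filter, pseudocount, covariates, variance model and libraries. A term for the plasma cell markers was added after the data were seen. Promoter windows are from RefSeq (GRCm38.p6).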

Additional observations from a re-analysis of the deposited data

How the results depend on the processing

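In EAE against naive mice 15 of the 23 ER genes that rose passed under every one of 18 alternatives other than the chemosensory term, and in treated against naive mice 15 of 28. Without scaling, 15 rose in each comparison, with 1059 and 1073 genes called in all in place of 1853 and 1932. Without the missing directions as covariates 30 and 31 ER genes rose, with 3485 and 3920 genes called. With the libraries of the 2 groups alone, 4442 genes were called in treated against naive mice. That fit held 0 missing directions in place of the 2 of the main model, so the model differed as well as the libraries. With the chemosensory term 0 ER genes rose in either comparison, with 96 and 25 genes called. In that fit the log2 fold changes of Creld2, Pdia6 and Ssr3 in EAE mice turned to -0.31, -0.0073 and -0.19. Those of Hspa5, Dnajb11, Dnajc3, Creld2, Pdia6, Sec61a1 and Ssr3 in treated mice turned to -0.87, -0.013, -0.12, -0.41, -0.24, -0.012 and -0.44. None of these 10 passed there. The chemosensory share did not overlap between the 3 groups, so this fit can hardly separate it from group, and the cause was not tested.

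Leaving out 1 library at a time gave 17 to 30 ER genes higher and 0 to 1 lower in EAE mice, and 22 to 31 higher and 0 to 1 lower in treated against naive mice, with 1239 to 2624 and 1234 to 3327 genes called. Each of these fits held 1 missing direction in place of the 2 of the main model. The lowest count of ER genes in EAE mice came without naive replicate 1 and the highest without naive replicate 2. The gene that passed as lower was Trib3 without naive replicate 2, in both comparisons, and Dnajb9 without naive replicate 3, in treated mice. Treated against EAE mice gave 0 ER genes under all 19 alternatives. No paired analysis was possible because the replicate numbers were given by deposition order and the labels link no mice across groups.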

Other observations

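Of the 50 ER genes, 10 followed the plasma cell marker sum in its extremes, with naive replicate 2 highest and naive replicate 3 lowest among naive mice, EAE replicate 1 lowest among EAE mice and treated replicate 1 highest among treated mice. They were Dnajb11, Canx, Txndc5, Xbp1, Atf4, Ppp1r15a, Herpud1, Syvn1, Derl3 and Ssr3. The share was 20%, beside 6.05% of all tested genes. The pattern was noticed in these values, which lack 2 directions across libraries, and was not tested.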
